A study of Mus musculus with 2148 samples.

Results

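Rgr, Fam19a1, Neurod4, Epyc, Ly9, Nsg2 and Dusp15 were 7 of the 48437 genes counted in single thymic epithelial cells, and were chosen because they were measured at a higher level in mature medullary cells of mice without Aire than in those of wild-type (WT) mice. The cells came from C57BL/6 mice and were sorted as CD45-negative, EpCAM-positive cells into cortical cells (cTEC) and into medullary cells with high or low surface MHC class II (mTEChi and mTEClo). Each library was 1 cell, read by RamDA-seq, a method that covers total RNA along its full length. The adult AireKO mice were 5-week-old males and gave 17.1% of all cells as mTEChi and 7.78% as mTEClo. Adult WT mice gave 31.3% as mTEChi (620 cells, from males of 4, 5 and 6 weeks and females of 4 weeks), 18.03% as mTEClo (males of 4, 5 and 8 weeks) and 3.89% as cTEC (77 cells, from 6-week-old males). WT mice aged 1 day, of unknown sex, gave 8.64% as mTEChi, 6.26% as mTEClo and 7.02% as cTEC. The labels give the knockout as AireKO without naming the allele, and they do not number the mice. Cells of a group with the same age and sex are called a mouse pool here, and cells of a pool may come from several mice.

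Aire is a transcriptional regulator of mature medullary thymic epithelial cells, which present proteins of many other organs to developing T cells so that T cells reacting to the body itself are removed. It is best known for raising the expression of a great many tissue-restricted genes, each in a small share of the cells. The 7 genes are themselves restricted to particular tissues elsewhere in the body. Rgr encodes an opsin of the retinal pigment epithelium and Müller glia. Fam19a1, also named Tafa1, encodes a small secreted protein of the nervous system, and Neurod4 a basic helix-loop-helix transcription factor of developing neurons. Epyc (epiphycan) is a small leucine-rich proteoglycan of cartilage matrix. Ly9 is a receptor of the SLAM family on lymphocytes. Nsg2 is a vesicle protein of neurons, and Dusp15 is an atypical dual specificity phosphatase found in testis and myelinating glia.

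All 7 are protein-coding and lie on 6 chromosomes of GRCm38. Rgr (ENSMUSG00000021804) spans chr14:37034909-37048964 on the minus strand. Fam19a1 (ENSMUSG00000059187) spans chr6:96113154-96657198 on the plus strand. Neurod4 (ENSMUSG00000048015) spans chr10:130268152-130280240 on the minus strand and Epyc (ENSMUSG00000019936) chr10:97644068-97682454 on the plus strand, 32.6 Mb apart. Ly9 (ENSMUSG00000004707) spans chr1:171588624-171607410 on the minus strand, Nsg2 (ENSMUSG00000020297) chr11:32000463-32059202 on the plus strand, and Dusp15 (ENSMUSG00000042662) chr2:152940997-152951698 on the minus strand. Strand was not used in counting, and 3 of the 7 overlap an opposite gene that had reads. Of the exon bases of Epyc, 40.6% are shared with the long noncoding RNA Gm10754, whose own reads came to 0.614 CPM (reads of a gene per 1e6 reads on all genes) in Aire-KO mTEChi. Fam19a1 holds 1700123L14Rik, and Ly9 overlaps Cd244a, each with 0 shared exon bases.

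Promoter windows from 250 bases before to 50 bases after the transcription start, taken from RefSeq on GRCm38.p6, were found for 5 of the 7 genes. The windows of Rgr (chr14:37048965-37049264, minus strand), Fam19a1 (chr6:96112904-96113203, plus strand) and Neurod4 (chr10:130280205-130280504, minus strand) are printed because these 3 genes had the largest ratios between the genotypes. They read 5′ to 3′ along the gene, and capitals mark a TATA box, a CCAAT box or an AP-1 motif on either strand.
Rgr: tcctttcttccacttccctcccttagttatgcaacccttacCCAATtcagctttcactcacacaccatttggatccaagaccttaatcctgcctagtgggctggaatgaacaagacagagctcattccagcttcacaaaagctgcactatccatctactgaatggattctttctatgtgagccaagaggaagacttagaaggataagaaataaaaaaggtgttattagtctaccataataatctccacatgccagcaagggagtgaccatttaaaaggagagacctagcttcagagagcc
Fam19a1: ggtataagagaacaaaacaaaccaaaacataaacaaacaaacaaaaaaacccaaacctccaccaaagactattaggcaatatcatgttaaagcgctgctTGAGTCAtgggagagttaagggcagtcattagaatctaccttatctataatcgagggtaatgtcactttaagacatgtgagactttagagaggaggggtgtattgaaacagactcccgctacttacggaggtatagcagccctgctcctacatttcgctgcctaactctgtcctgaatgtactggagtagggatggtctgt
Neurod4: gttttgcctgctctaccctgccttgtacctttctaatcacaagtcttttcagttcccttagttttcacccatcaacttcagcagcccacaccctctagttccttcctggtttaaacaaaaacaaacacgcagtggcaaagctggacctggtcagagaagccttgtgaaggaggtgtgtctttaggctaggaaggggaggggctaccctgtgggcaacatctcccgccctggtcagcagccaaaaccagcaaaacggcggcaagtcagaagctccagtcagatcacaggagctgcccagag
No one of these motifs was common to the 5 windows. The Rgr window held a CCAAT box, spelled by its name, which 37.4% of 32851 promoters of the same length held. The Fam19a1 window held an AP-1 motif, searched as TGANTCA, which 7.81% of promoters held. The TATA box, searched as TATAAA, was in none of the 5 windows and in 13.6% of promoters. The E-box letters CANNTG, which neuronal helix-loop-helix factors bind, occurred in the windows of Rgr, Fam19a1, Epyc and Nsg2 and not in that of Neurod4, against 72.3% of all promoters. The Rgr window held 0 CG dinucleotides and 94.6% of promoters held more, whereas Fam19a1, Neurod4, Epyc and Nsg2 held 5, 4, 2 and 10 against a median of 7. Ly9 and Dusp15 are named only.

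A cell had a median of 692880 reads on genes (203010 to 1823784), with 812728.5 in Aire-KO and 772240 in WT mTEChi. Aire itself checked the labels: the 4 Aire-KO mTEChi plates had 17.0 to 36.9 CPM and the 9 WT plates 869.8 to 1789.7. At least 1 Aire read was found in 64.2% of Aire-KO and in 620 of 620 WT cells, so reads of the gene were counted in the knockout. Of 8 markers of mature mTEC, all 8 were detected in both genotypes, with a summed level of 4909 to 6142 CPM in Aire-KO and 5785 to 9131 CPM in WT plates, Aire included. Of the cells of 3 male-labelled adult WT mTEClo plates, numbered 32, 33 and 34, 8, 2 and 5 held more Xist than Y-chromosome reads, against 0 to 2 on other male-labelled plates. Those 3 plates make up the 8-week-old mTEClo pool. Levels of the adult WT mTEClo pools are given below pool by pool, and some fold changes also without this pool. Means and counts over the mTEClo pools include it.

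By plate, the level of each gene was set out for adult Aire-KO against WT mTEChi. This comparison chose the genes, so their values in it are a description with no test. Rgr, a light-sensing opsin in the eye, reached 42.9, 71.8, 67.7 and 23.2 CPM in Aire-KO plates 7, 8, 13 and 14. The 9 WT plates ran from 1.96 over a median of 11.1 to 13.2 CPM. Every Aire-KO plate lay above every WT plate, with 52.4 against 8.62 CPM over all cells, a ratio of 6.07.

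Fam19a1, the secreted neuronal factor, reached 89.9, 101.7, 168.9 and 55.2 CPM in the same order of Aire-KO plates. The WT plates ran from 9.30 over 20.6 to 36.6 CPM, again with no overlap, and the ratio over all cells was 4.33 (110.7 against 25.6 CPM). Neurod4 was the scarcest of the 7, with 29.4, 10.3, 8.87 and 27.8 CPM in Aire-KO plates. The WT plates of Neurod4 ran from 0.585 over 5.08 to 9.44 CPM, so that 3 of 4 Aire-KO plates lay above the highest WT plate, and the ratio was 3.99. One Aire-KO cell of plate 7 held 30.7% of all Neurod4 reads of its genotype. Without it plate 7 was at 10.8 CPM, and without the cell with most reads in each genotype the ratio was 3.15.

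The matrix gene Epyc had 41.8, 39.5, 45.8 and 72.4 CPM in Aire-KO plates, against 5.598, 19.9 and 43.3 CPM as the lowest, median and highest WT plate. Its groups overlapped, with 2 Aire-KO plates above all WT plates and a ratio of 2.19. Ly9, the lymphocyte receptor, had 88.1, 66.3, 99.1 and 62.4 CPM in Aire-KO and 14.6, 24.7 and 42.9 CPM as the lowest, median and highest in WT plates. It did not overlap, and its ratio was 3.34.

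Nsg2, the neuronal vesicle protein, had 35.8, 60.7, 108.2 and 77.5 CPM in Aire-KO plates and 15.6, 23.5 and 44.97 CPM as the lowest, median and highest in WT plates. Its ratio was 2.55, with plate 7 inside the WT range. Dusp15, the most widely detected of the 7, had 80.2, 110.2, 134.8 and 66.03 CPM in Aire-KO plates and 11.7, 42.4 and 68.7 CPM as the lowest, median and highest in WT plates, a ratio of 2.29. Plate 14 fell inside the WT range of Dusp15, whose highest WT plate was the only female one, and without that plate the highest WT plate was 60.2 CPM and the genotypes did not overlap. No overlap was thus seen for 3 of 7 genes (Rgr, Fam19a1 and Ly9), against 1.97% of 37011 genes that lay higher in all 4 Aire-KO plates. That share is given as background only, since the genes were chosen on this contrast.

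**Figure D1:**
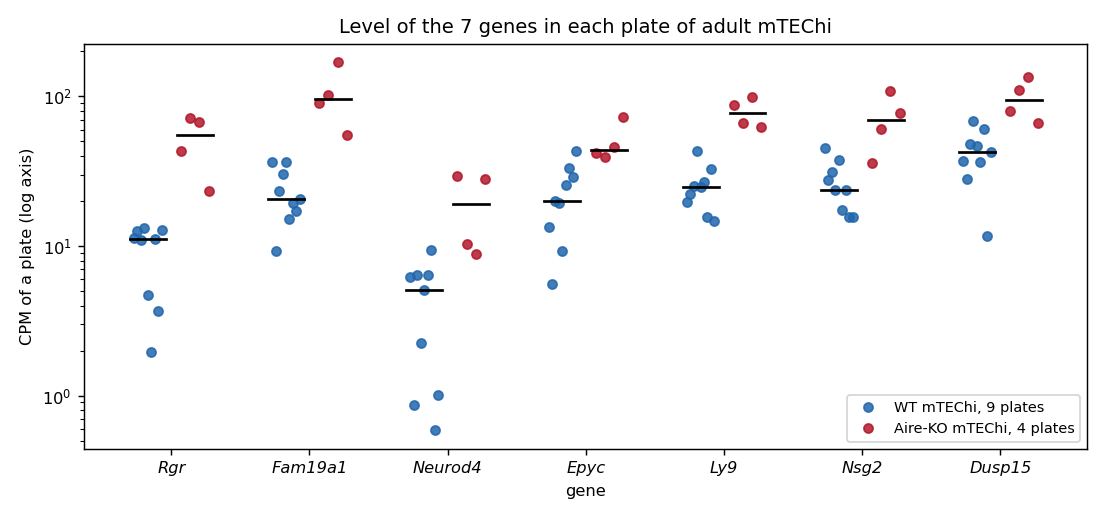
CPM of each gene (log axis) in the 4 plates of Aire-KO mTEChi (red) and the 9 plates of adult WT mTEChi (blue), 1 point per plate, with the median as a bar. Rgr, Fam19a1 and Ly9 show no overlap between the genotypes, and the lowest Aire-KO plate of Rgr, at 23.2 CPM, lies above the highest WT plate, at 13.2 CPM.

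The same contrast fitted over plates with edgeR gave log2 fold changes of 2.64 (SE 0.68) for Rgr, 2.32 (SE 0.47) for Fam19a1, 2.29 (SE 0.70) for Neurod4, 1.81 (SE 0.63) for Ly9, 1.57 (SE 0.65) for Nsg2, 1.36 (SE 0.39) for Dusp15 and 1.29 (SE 0.79) for Epyc. These too are a description, since the genes were chosen on this contrast, and no call is given for them. The median over all genes was -0.09. In the fit, 1.21% of 37011 genes were called higher and 4.35% lower (a fold of 2 or more with an edgeR adjusted p below 0.05), which serves as background for the relatives and neighbours of the 7 genes. Plates are technical units that may share mice, and with mouse pools in their place (1 against 4) 0 genes were called higher.

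The 7 genes were not silent in WT mTEChi. At a threshold of 1 read, the ratio of the median CPM among cells with a read exceeded the ratio of the shares for each gene. How much lies in the share depends on that threshold. At least 5 reads of Rgr were found in 45.9% of Aire-KO and 13.5% of WT cells. Dusp15 had a read in 84.6% of Aire-KO cells (plates pooled) and 78.4% of WT cells, and Nsg2 in 62.4% and 58.5%. Among cells with a read, the median CPM was 2.83 times higher in Aire-KO for Dusp15 and 3.48 times higher for Nsg2. Rgr differed in both quantities, with a read in 55.03% (95% exact binomial interval 49.6 to 60.4) against 24.03% (20.7 to 27.6) of cells and a 5.52 times higher median among cells with a read. These intervals cover counting error only.

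Fam19a1 was found in 75.7% against 53.9% of cells and Neurod4 in 21.9% against 10.3%. For Epyc the shares were 38.2% and 32.9%, and for Ly9 69.8% and 55.8%. After each cell was thinned to 200000 reads, the shares in Aire-KO and WT cells were 49.7% and 16.3% for Rgr, 72.2% and 42.9% for Fam19a1, 20.1% and 8.23% for Neurod4, 33.4% and 22.4% for Epyc, 63.6% and 44.2% for Ly9, 55.9% and 46.8% for Nsg2, and 76.3% and 66.8% for Dusp15. All 7 shares stayed higher in Aire-KO at equal depth. As a cell type with little of most of these genes, adult cTEC had a read of Rgr in 2.60%, of Fam19a1 in 1.30% and of Epyc in 1.30% of 77 cells. Neurod4 was read in 0%, Ly9 in 11.7%, Nsg2 in 20.8% and Dusp15 in 53.2% of them.

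Reads were concentrated in few cells, with larger shares in WT. Such a share depends on how many cells hold a read, and fewer WT cells did for each gene. The difference between the genotypes therefore follows in part from the contrast that chose the genes. The tenth of cells with most reads of a gene (34 Aire-KO and 62 WT cells) held 60.3% of the Rgr reads in Aire-KO and 93.6% in WT, and 45.3% and 66.7% of the Fam19a1 reads. Neurod4 was the most concentrated in both genotypes, at 89.3% and 99.9%, and Epyc followed at 82.6% and 91.3%. Only 64 WT cells had a read of Neurod4, so its WT value was nearly fixed in advance. For Ly9 the values were 51.8% and 70.98%, for Nsg2 56.5% and 68.1%, and for Dusp15 43.1% and 58.7%. Per kilobase of exon, the scale on which genes can be set side by side, the level in Aire-KO mTEChi fell from 26.3 CPM per kb for Fam19a1 over 25.0 for Ly9, 22.9 for Dusp15, 18.9 for Epyc, 17.1 for Nsg2 and 10.9 for Rgr to 5.71 for Neurod4. The length of Epyc includes the 40.6% of its exon bases shared with Gm10754. How reads on shared bases were counted is not stated, so the place of Epyc in this order is uncertain.

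Whether a cell held several of the 7 genes was counted next. At least 5 of the 7 had a read in 47.9% of Aire-KO mTEChi (exact interval 42.5 to 53.4, plates 38.4% to 64.4%) and in 18.2% of WT mTEChi (15.3 to 21.5, plates 4.17% to 25.6%). In newborn mTEChi the share was 18.1% (12.7 to 24.7). At 200000 reads per cell the shares were 40.5%, 8.87% and 9.36%. All 7 genes together were read in 22 Aire-KO and 6 WT cells, and none of them in 8 and 23 cells. Since a higher level makes a read likelier, these counts follow in part from the contrast that chose the genes.

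**Figure D2:**
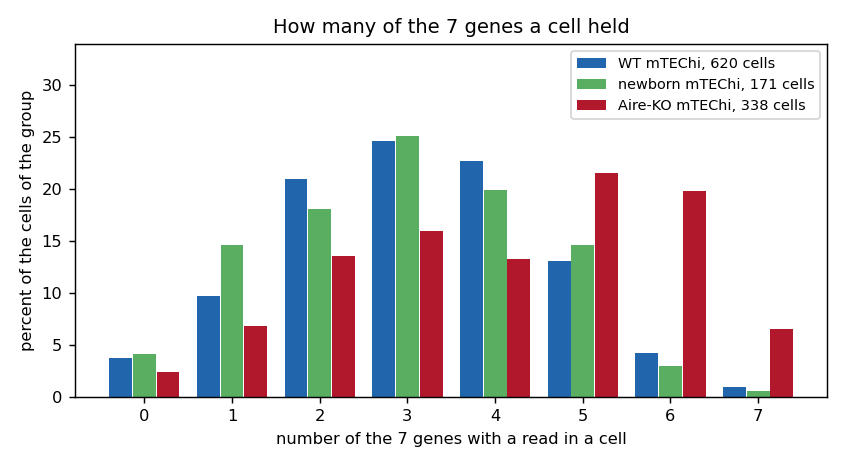
Percent of the cells of each mTEChi group (bars) by the number of the 7 genes with at least 1 read in the cell. Aire-KO cells (red) make up the larger bars from 5 genes upwards, where 47.9% of them lie against 18.2% of adult WT (blue) and 18.1% of newborn cells (green).

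Within Aire-KO mTEChi, all 21 pairs of the 7 genes were read in the same cell more often than the product of their shares, by 1.04 to 1.56 times (median 1.14). Neurod4 and Epyc met in 44 cells where the product gives 28.2. In WT cells 19 of 21 pairs lay above the product (0.983 to 1.57 times, median 1.11). Pairs of other genes were not counted, so these numbers of pairs have no background. Across the Aire-KO cells, Spearman's correlation of the counts ran from 0.046 for Neurod4 and Dusp15 to 0.529 for Ly9 and Dusp15, with no test, since the cells share plates, mice and depth.

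Whether one subset of cells carried all 7 genes was asked with clusters of all cells, made without the 7 genes and without Aire. Of 17 clusters, cluster 16 held 6.72% of all cells, and 94.7% of these were Aire-KO mTEChi, beside 6 adult WT and 1 newborn mTEChi. Its genes with the largest fold over all other cells included Olfr1136, Rgr, Epyc, 4931408C20Rik, Nsg2, Adprhl1, Ly9 and Myot. The 7 genes took part in this ranking, and their place in it follows in part from the contrast that chose them. Cluster 16 stayed unnamed, since no list of cell type markers had more than 1 gene over 2-fold higher there. Cluster 14, also unnamed and led by Myh4, Ctla4 and Eomes, was the one that both genotypes filled, with 43.4% of its cells from Aire-KO and 53.2% from adult WT mTEChi. Cluster 5, led by Kcnk9 and Acan, was 69.7% adult WT and 27.8% newborn mTEChi and held 4 Aire-KO cells. Among Aire-KO mTEChi, reads of Aire were highest in cluster 16, at 52.7 CPM against 16.6 CPM in cluster 14. In adult WT mTEChi, Aire was at 916.6 CPM in cluster 14 and higher in cluster 5. The 6 WT cells of cluster 16 had the most, 2692.3 CPM. The paper describes a cluster specific to Aire-KO as the counterpart of its Aire-expressing cells. Whether cluster 16 matches it was not tested. Clusters rest on genes that differ between the genotypes, so their sizes are not compared.

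Of the Aire-KO cells with at least 5 of the 7 genes, 66.05% (exact interval 58.2 to 73.3) were in cluster 16, and 84.9% of its Aire-KO cells were of this kind, against 34.9% in cluster 14. On the 4 plates, cluster 16 took 33.3% to 42.5% of the Aire-KO cells. With other cluster settings, the cluster with most such cells held 66.05% to 69.1% of them. The subset therefore appeared on each plate and held most, but not all, of these cells. Which genes were highest there depended on the setting. Among the larger Aire-KO clusters, it was the highest for 6 genes in the main setting, all but Fam19a1. At resolution 1.5 it was the highest for 5, no longer for Neurod4. With 2000 variable genes it was the highest for 4 (Rgr, Epyc, Nsg2 and Dusp15). It then held 19 adult WT mTEChi, and 84.1% of its cells were Aire-KO mTEChi.

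The genes differed in the share of their reads that lay in cluster 16. Epyc was the most confined, with 83.3% of its Aire-KO reads there, at 113.7 CPM against 6.82 in the Aire-KO cells of cluster 14. Nsg2 had 74.2% of its reads there (149.1 against 26.8 CPM), Dusp15 65.8% (186.2 against 69.4 CPM), Rgr 64.6% (95.4 against 43.2 CPM) and Ly9 62.4% (145.7 against 69.6 CPM). Neurod4 had 48.1% of its reads there, at 25.9 against 22.2 CPM. The cell with most Neurod4 reads was in cluster 14, and without it the share was 69.4% and cluster 14 was at 7.95 CPM. Fam19a1 went the other way, with 32.8% of its reads in cluster 16 and 102.5 CPM there against 170.8 CPM in cluster 14.

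In the 34 Aire-KO cells of the cycling-like cluster 2, led by Hmmr, Ube2c and Cdc20, 5 of the genes lay between 1.33 CPM (Ly9) and 3.45 CPM (Rgr). Nsg2 and Dusp15 kept 22.4 and 15.6 CPM there. In WT mTEChi, Epyc also kept out of cluster 14 (2.74 CPM against 38.8 in cluster 5), and Fam19a1 was higher in cluster 14 (47.9 against 18.4 CPM). Ly9 was higher in cluster 14 than in cluster 5 of WT cells, at 45.3 against 22.6 CPM, while Rgr, Neurod4, Nsg2 and Dusp15 were higher in cluster 5. The 6 WT cells of cluster 16 summed to 252.2 CPM of Dusp15, 188.4 of Epyc and 128.5 of Ly9, with 0 reads of Neurod4. These sums rest on few cells, with Epyc at 776.1 CPM over the 2 cells of plate 41 and at 0 to 42.96 CPM in the other cells.

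**Figure D3:**
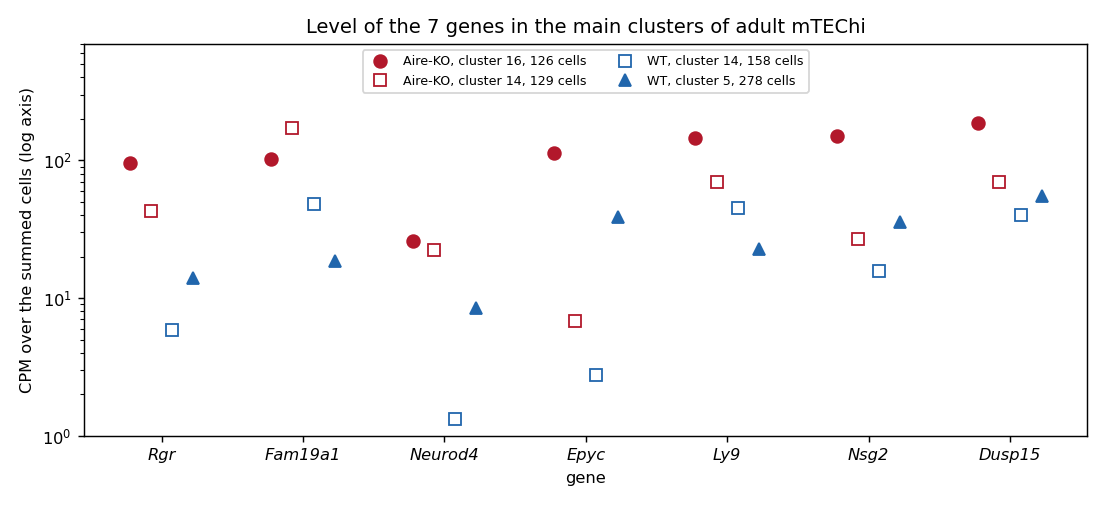
CPM of each gene (log axis) over the summed adult mTEChi of a genotype (red Aire-KO, blue WT) in clusters 16, 14 and 5. The 6 WT cells of cluster 16 are not drawn, and of the sets drawn the filled red circles, the Aire-KO cells of cluster 16, are highest for every gene but Fam19a1, which reaches 170.8 CPM in the Aire-KO cells of cluster 14.

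Leaving out cluster 16 moved the ratio between the genotypes by different amounts. Fam19a1 kept its size, at 4.62 beside 4.33 over all cells. Rgr fell from 6.07 to 3.45 and Ly9 from 3.34 to 2.01. Neurod4 was at 3.18, but at 1.49 once the cell with most of its reads in each genotype was also left out. The ratio was 1.27 for Dusp15, 1.04 for Nsg2 and 0.604 for Epyc, whose direction turned. This leaves 62.7% of the Aire-KO and 99.03% of the WT cells, with 44.8% of all WT cells in cluster 5, where Aire-KO cells were few. It also takes out the Aire-KO cells of the cluster with most Aire reads. The WT cells of cluster 5, higher in Aire than those of cluster 14, remain. Within cluster 14 alone, all 7 ratios were above 1: 16.7 for Neurod4 (22.2 against 1.33 CPM; 5.98 without its top cell), 7.34 for Rgr, 3.57 for Fam19a1, 2.49 for Epyc, 1.74 for Dusp15, 1.71 for Nsg2 and 1.53 for Ly9. These ratios pool the cells of all plates. They are a description, since the cells belong to the contrast that chose the genes. By plate, the genotypes did not overlap in cluster 14 for 2 genes, Fam19a1 (95.9 to 257.6 against 2.24 to 86.8 CPM) and Neurod4 (3.89 to 39.5 against 0 to 3.43 CPM, its highest plate holding the top cell). They overlapped for the other 5, as for Ly9 (42.98 to 134.6 against 4.38 to 91.4 CPM). A plate had 10 to 43 Aire-KO or 4 to 28 WT cells in cluster 14. The share of all genes that did not overlap there was not counted, so these numbers of genes have no background.

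**Figure D4:**
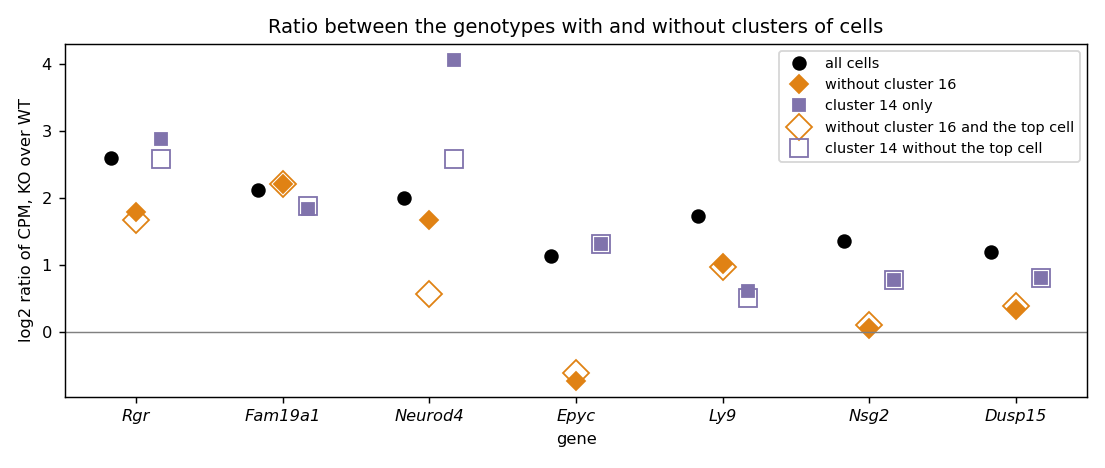
Log2 ratio of CPM, Aire-KO over WT mTEChi, for each gene over all cells (circles), without cluster 16 (filled diamonds) and in cluster 14 alone (filled squares), with the line at 0 for equal levels. Open symbols also leave out the cell with most reads of the gene in each genotype. Without cluster 16, Epyc falls to -0.73 and Nsg2 to 0.06, Rgr is at 1.78, and Neurod4 is at 1.67 with and 0.57 without its top cell.

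Ly9 is a lymphocyte gene, so the markers of thymocytes, which adhere to these cells, were set beside it. Their 10 genes summed to 29.4 to 80.2 CPM in Aire-KO and 43.6 to 133.7 CPM in WT mTEChi plates, with none at 0 in either. Ptprc (CD45) was at 5.28 against 20.3 CPM and Cd3e at 1.13 against 4.42 CPM, while Cd4 was at 26.1 against 18.8 and Rag1 at 18.9 against 11.97 CPM. In cells with no read of Ptprc, Cd3d, Cd3e or Cd3g, Ly9 was at 82.6 CPM in Aire-KO (270 cells, 79.9% of all) and 28.1 CPM in WT (51.1% of all), a ratio of 2.94, and it was read in 66.7% and 58.04% of them. In cells with such a read Ly9 was at 83.7 CPM in Aire-KO and 21.5 CPM in WT, and was read in 82.4% and 53.5% of them.

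Markers of retina and neurons were set beside Rgr and the neuronal genes. The 9 genes of that list summed to 25.97 to 47.05 CPM in Aire-KO and 37.2 to 100.9 CPM in WT plates. The retinal isomerase gene Rpe65 had 0 reads in Aire-KO mTEChi and 0.902 CPM in WT, and the photoreceptor factor Crx 0.0239 and 2.08 CPM. The 9 neuroendocrine markers summed to 238.2 to 375.6 against 179.5 to 345.9 CPM. Most of that sum was Insm1 (283.6 against 157.7 CPM), while Neurod1, a relative of Neurod4, was at 0.0239 against 3.23 CPM.

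The level also differed between the sorts of WT mice, where adult WT mTEChi had entered the choice of the genes and the other WT groups had not. The adult WT mTEChi mouse pools averaged 12.7 ± 5.36 CPM for Rgr (mean ± SD, n = 4), 3.65 ± 2.19 for Neurod4, 27.3 ± 10.8 for Ly9, 28.3 ± 3.46 for Nsg2 and 48.5 ± 13.7 for Dusp15, and each of the 4 pools lay above each of the 3 adult WT mTEClo pools, as it did for 16.1% of 39971 genes. Epyc averaged 15.6 ± 10.5 CPM, with 3 of 4 pools above the mTEClo pools. The exception was the pool of 12 cells, at 0.125 CPM. Fam19a1 averaged 23.2 ± 6.67 CPM in mTEChi and 16.5 ± 11.3 CPM (n = 3) in mTEClo, within each other's spread. The lower mTEClo mean rests on the 8-week pool at 3.38 CPM, since the 5- and 4-week pools had 22.8 and 23.2 CPM.

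The adult WT mTEClo pools of 8-, 5- and 4-week-old males had 3.38, 22.8 and 23.2 CPM of Fam19a1. Rgr and Neurod4 were read only in the 8-week pool, at 0.524 and 0.0622 CPM, and 0 reads in the other pools allow up to 0.05002 and 0.0639 CPM. Epyc was at 4.01, 0.250 and 0 CPM, and Ly9 at 1.60, 0.200 and 7.05 CPM. Nsg2 was at 0.711, 8.85 and 8.56 CPM, and Dusp15 at 1.55, 1.33 and 1.30 CPM. The 8-week pool was thus the highest in Rgr and Epyc and the lowest in Fam19a1 and Nsg2.

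The single newborn mTEChi pool was at 11.7 CPM for Rgr, 13.8 for Fam19a1, 1.60 for Neurod4, 17.1 for Epyc, 21.5 for Ly9, 26.8 for Nsg2 and 43.2 for Dusp15. Of these, Fam19a1 lay below all 4 adult WT mTEChi pools, while the other genes lay within the range of those pools. For Neurod4, Epyc and Ly9 the low end of that range was the pool of 12 cells, at 1.38, 0.125 and 18.3 CPM. The newborn levels of these genes lay below every larger adult pool, the lowest of which had 2.25, 19.5 and 22.4 CPM. Newborn plates held all 3 sorts, so mTEChi and mTEClo could be set side by side within a plate. All 7 genes were higher in mTEChi on 5 of 5 plates, as were 7184 of 37011 genes (19.4%). Newborn mTEClo had 7.89 CPM of Fam19a1, 2.02 of Nsg2, 1.49 of Dusp15, 0.749 of Ly9, 0.687 of Epyc and 0.04996 of Rgr. Neurod4 had 0 reads in newborn mTEClo, which allows up to 0.0375 CPM and a read in up to 2.42% of cells.

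Cortical cells had little of most of the 7 genes. Adult cTEC had 0.0154 CPM of Fam19a1, 0.169 of Rgr, 0.707 of Epyc, 2.72 of Ly9 and 0 of Neurod4 (0 of 77 cells, which allows up to 3.896%). Dusp15 was the exception at 22.3 CPM in the adult pool and 10.4 CPM in the newborn pool, above every mTEClo pool and below every mTEChi pool. Nsg2 was at 8.18 CPM in adult cTEC, within the range of the adult WT mTEClo pools. The thymocyte list summed to 412.4 CPM in the adult cTEC plate, above all mTEChi plates, and its part in the Ly9 level there was not tested.

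**Figure D5:**
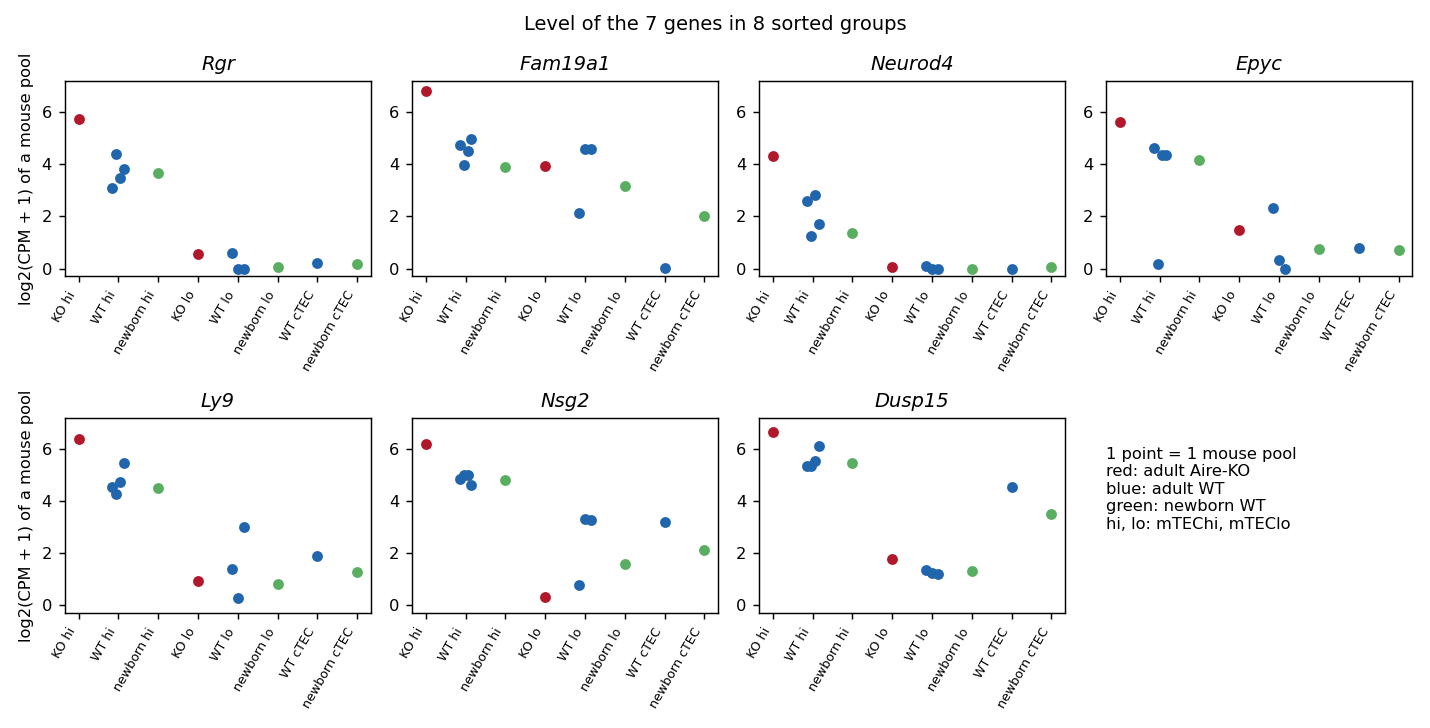
Log2(CPM + 1) of each gene in every mouse pool of the 8 sorted groups, 1 point per pool (red adult Aire-KO, blue adult WT, green newborn WT). The single Aire-KO mTEChi pool is the highest point for each gene, and the Aire-KO mTEClo pool lies among the other mTEClo pools for Rgr, Fam19a1, Neurod4, Epyc and Ly9, below them for Nsg2 and above them for Dusp15.

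Aire-KO mTEClo, which did not enter the choice of the genes, were tested against adult WT mTEClo over mouse pools (1 against 3) with edgeR's quasi-likelihood test. The Aire-KO pool had 14.5 CPM of Fam19a1, 2.46 of Dusp15, 1.81 of Epyc, 0.894 of Ly9, 0.491 of Rgr, 0.262 of Nsg2 and 0.0327 of Neurod4, the last from 3 reads. None of the 7 genes passed the test. Log2 fold changes were 0.83 (SE 0.42) for Dusp15, 0.22 (SE 2.39) for Epyc, -0.11 (SE 0.85) for Fam19a1 and -1.67 (SE 1.498) for Ly9, and 1.28 (SE 1.74) for Rgr, which 2 of the 3 WT pools did not hold. Nsg2 was the furthest from 0 at -4.44 (SE 1.34), with all 3 WT pools above the Aire-KO pool and an edgeR p of 0.00997 that adjusts to 1 over all genes. For Nsg2, DESeq2 gave -4.54 with an adjusted p of 0.0154, and adjusted p ran from 0.0154 to 1 over the alternatives.

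The spread of the mTEClo pools limited this test: 0 of 39971 genes (0%) were called, and at an unadjusted p below 0.05 2.11% were higher and 1.37% lower. DESeq2 called 0.680% of the genes and limma 6 genes. The missing calls therefore do not show that the genotypes were alike in mTEClo. The Aire-KO and WT levels of Fam19a1 in mTEClo, 14.5 against 3.38 to 23.2 CPM, lay in one range, unlike those in mTEChi.

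Newborn against adult WT mTEClo (1 against 3 pools) was tested in the same fit. None of the 7 genes passed, with log2 fold changes of -4.79 (SE 3.22) for Neurod4, -2.09 (SE 2.28) for Rgr, -2.02 (SE 1.54) for Ly9, -1.59 (SE 1.10) for Nsg2, -1.27 (SE 2.64) for Epyc, -1.08 (SE 0.91) for Fam19a1 and -0.0018 (SE 0.44) for Dusp15, and edgeR adjusted p values from 0.67 to 1 over the 7 genes. Of 39971 genes 0 (0%) were called, and at an unadjusted p below 0.05 5.55% were higher and 4.29% lower. DESeq2 called 4.59% of the genes and limma 75 genes. Without the 8-week pool edgeR called genes that make up 1.08% of the count table, and the fold changes of Rgr and Epyc turned to 5.599 and 2.38. Rgr then had 0 reads in both remaining adult pools, so its value depends on the prior count of the fit and is no bound.

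Across single cells of WT mTEChi, where Aire is made, Spearman's correlation of the 7 genes with Aire was above 0. It was 0.443 for Dusp15, 0.328 for Ly9, 0.327 for Nsg2, 0.304 for Rgr, 0.172 for Epyc, 0.145 for Fam19a1 and 0.126 for Neurod4 over 620 cells. Within the 3 mouse pools of 82 or more cells the values ran from 0.033 for Neurod4 in the female pool to 0.500 for Dusp15 in the 6-week pool, all above 0. These values are a description, since the cells share plates, mice and depth.

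No relative of the 7 genes in the lists of their families was called higher. Beside Rgr, 15 opsins and visual cycle genes were tested over plates of Aire-KO and WT mTEChi, of which 0 were called higher and 2 lower, beside 1.21% and 4.35% of all genes, with a median log2 fold change of -1.44 against -0.09 over all genes. The 2 were Opn4, the melanopsin gene (0.0554 against 9.51 CPM as the mean of plates), and Rbp3, a retinoid carrier of the photoreceptor matrix (0 reads against 2.18 CPM). Lrat and Rdh10, which process retinoids, were the most abundant at 94.9 against 51.3 and 77.4 against 67.95 CPM and were not called. Of the 4 other TAFA genes 0 were called, with a median of -0.45, and Fam19a2 was at 51.7 against 32.2 CPM and Fam19a4 at 12.6 against 21.3 CPM.

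Of 12 other neuronal helix-loop-helix factors, 0 were called higher and 1 lower, Atoh7 (0 reads against 2.03 CPM), a factor of retinal ganglion cells. Their median was -3.01, and Olig2 was at 11.8 against 5.96 CPM. Of 13 other small leucine-rich proteoglycans 0 were called, with a median of -1.36, and Dcn (decorin) was at 69 against 31.2 CPM and Optc at 12.5 against 12.3 CPM. Of 10 other SLAM family genes 0 were called, with a median of 0.30, and Slamf7 was at 79.6 against 38.8 CPM and Slamf1 at 18.7 against 17.1 CPM.

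Of 8 other neuronal vesicle genes 0 were called, with a median of 0.28, and Syt1 was at 829.7 against 587.4 CPM and Vamp2 at 117.9 against 125.4 CPM. Of 9 other atypical dual specificity phosphatases 0 were called higher and 1 lower, Dusp26 (0 reads against 2.92 CPM). Their median was -0.54, with Dusp22 at 201.9 against 159.7 CPM and Dusp19 at 21.0 against 19.3 CPM. In both mTEClo tests 0 genes of every list were called. Read against 1.21% of all genes called higher and 4.35% lower, counts of 0 to 2 in lists of 4 to 15 genes are too few to set apart from the background.

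Neighbours on the chromosome were examined in the same fit. Within 200 kb of the 7 genes lie 50 other protein-coding genes, of which 45 were tested, 2 were called higher and 0 lower, beside 1.21% and 4.35% of all genes, with a median log2 fold change of 0.28. Both called genes are next to a member: 1700123L14Rik, which lies within Fam19a1 on the opposite strand, was at 38.2 against 7.16 CPM (log2 fold change 2.55, SE 0.43), and Ttll9, a tubulin ligase-like gene 10.8 kb from Dusp15, was at 94.2 against 38.5 CPM (1.43, SE 0.44). Without strand in the counts, reads of 1700123L14Rik and of Fam19a1 introns cannot be told apart. Beside Rgr, the retinal genes Lrit1, 5.87 kb away, and Lrit2, 18.97 kb away, were at 37.6 against 10.6 and 28.8 against 7.83 CPM. Lum (lumican), 71.4 kb from Epyc, was at 11.7 against 2.53 CPM. Lrit1, Lrit2 and Lum were not called.

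The genes with the most similar pattern over the 36 plate-by-sort sums of all 8 groups were named by Pearson's correlation of log2(CPM + 1) among 14924 genes. These correlations include the contrast that chose the 7 genes and have no test. Rgr was closest to Erg (0.948), Ptger3 (0.939) and Cacng6 (0.929), Fam19a1 to Asphd1 (0.899), Ankrd37 (0.881) and Psd3 (0.864), and Neurod4 to Erc2 (0.907), Olfr1136 (0.900) and Pln (0.884). Epyc was closest to Sirt1 (0.921), Slc22a3 (0.918) and Myot (0.918), and Ly9 to Fabp12 (0.949), Gramd4 (0.943) and Chrna5 (0.938). Nsg2 was closest to Arfgef2 (0.934), P2rx4 (0.929) and Traf6 (0.920), and Dusp15 to Ing1 (0.944), AI504432 (0.938) and Arhgap44 (0.934). Among themselves the 7 genes ran from 0.534 for Fam19a1 and Dusp15 to 0.906 for Epyc and Ly9, with Fam19a1 the least like the rest.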

How the data were processed

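Single thymic epithelial cells were sequenced in 2148 samples of 1980 cells (168 cells in 2 runs, 1 column of values each): 338 mTEChi and 154 mTEClo of adult Aire-KO mice, 620 mTEChi, 357 mTEClo and 77 cTEC of adult WT mice, and 171 mTEChi, 124 mTEClo and 139 cTEC of newborn WT mice. How the runs were combined is not given in the sources used here. The deposited table holds counts of reads per Ensembl gene. Per the submitters' processing notes and the study's methods, the authors cleaned reads with fastp 0.20.0, mapped them to mm10 with STAR 2.7.3a, removed duplicates with Picard 2.21.1, used SAMtools 1.9, and counted with HTSeq 0.11.2 without strand, so that overlapping and antisense genes cannot be told apart. They kept cells with more than 200000 reads. A second deposited table of length-scaled scores was not used.

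Counts were summed by plate and by mouse pool (cells of a group that share age and sex, 13 pools), since cells are not replicates. edgeR 4.0.16 (R 4.3.3) was run with its filter on low counts, TMM scaling and the quasi-likelihood test over all genes and the 11 mTEC pools. Groups of 1 pool were assumed to vary like the other groups. Tests were 2-sided with Benjamini-Hochberg adjustment. Because nothing says which cells come from separate mice, p-values measure the spread between these sums only. Adult Aire-KO against WT mTEChi, the contrast that chose the genes, was fitted over plates with edgeR for all genes, from which calls are given for other genes and in total, and values without calls for the 7 genes. The scripts were tested on simulated counts.

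Cells were clustered with scanpy 1.11.5 (6000 variable genes without the 7 genes and Aire, 30 components, 20 neighbours, resolution 1.0). Cells were sorted 1 per well and no doublet caller was run. Gene positions came from GENCODE M21 on GRCm38. Depth was 203010 to 1823784 reads per cell. The exact binomial intervals (95%) rest on the number of cells. The floors are 3 counts over the reads or over the cells of a pool. Both are for counting error only.

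Genes named besides the 7 were Aire, the 3 most similar genes of each (mean of at least 5 CPM in 1 group or more, predicted genes, pseudogenes and overlapping genes left out), protein-coding neighbours within 200 kb, and from each family list the called genes, otherwise the 2 with the highest mean CPM in Aire-KO mTEChi plates. Some single genes that these rules or the cluster description would name are not reported here. For Ttll9, Lrit1, Lrit2, Lum and 1700123L14Rik the choice among the neighbours was made after their values were seen, as was that of the marker genes named singly and the genes that lead clusters. The 7 genes and all lists were chosen with earlier results of these data known. Alternatives were DESeq2 1.42.0, limma 3.58.1 (pseudocount 1), other size factors, no filter, plates for pools, left-out pools and plates, thinned cells and other cluster settings. The ratios without a cluster, without cells holding lymphocyte reads, without the female plate, without the top cell and combinations of these were added after the data were seen.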

Additional observations from a re-analysis of the deposited data

Results flagged for a closer look

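Dixon's test at 95% marked 2 of 28 sets of 4 to 10 plates examined for the 7 genes, and chance alone marks about 1 in 20 sets. In adult WT mTEClo, plate 32 had 0.146 CPM of Neurod4, the highest of 5 plates, while the next plate had 0.0272 CPM. Plate 33 of the same mTEClo had 9.80 CPM of Epyc, the highest of 5 plates, while the next had 1.61 CPM. Both plates belong to the 8-week-old pool, in which cells with more Xist than Y-chromosome reads were found under a male label, and the part of that pool in these values was not tested.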

How the results depend on the processing

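Over the alternative values of 40 results, 82.9% kept their direction and their side of the threshold or stayed near the main value, 1 gained a call, 28 moved and 23 turned direction. Calls are given here as shares of the 48437 counted genes. For Aire-KO against WT mTEClo, where edgeR called 0 genes, the share was 0.562% with DESeq2, 0.0124% with limma, 0.00206% without a filter and 0.178% over plates, and leaving out a pool or plate gave 0 to 0.00413% (the last without the 8-week pool). For newborn against adult WT mTEClo the main count of 0 became 3.79% with DESeq2, 0.155% with limma and 12.1% over plates, and leaving out a pool gave 0 to 1.08%, the last without the 8-week pool. For Aire-KO against WT mTEChi by plate, 0.927% of genes were called higher, which became 0 over mouse pools and 0.372% to 0.813% when 1 Aire-KO plate was left out, the lowest without plate 13, with 0.467% without plate 8 and 0.526% without plate 7.

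Among the 7 genes, fold changes that turned direction in Aire-KO against WT mTEClo were those of Fam19a1 (0.34 with limma, 0.31 over plates), Neurod4 (-0.067 over plates) and Epyc (-0.67 over plates). When 1 pool or plate was left out, Rgr ran from -0.60 to 8.97, Fam19a1 from -0.58 to 0.21, Neurod4 from -0.47 to 5.10, Epyc from -1.23 to 3.88 and Dusp15 from -1.34 to 1.73. The highest values of Rgr, Neurod4 and Epyc, and the lowest of Fam19a1, came without the 8-week WT pool, and the negative values of Rgr and Dusp15 without Aire-KO plate 10. In newborn against adult WT mTEClo, Dusp15 turned with other size factors (0.013), with DESeq2 (0.0095) and without a filter (0.0095). When 1 pool was left out, Rgr ran from -2.65 to 5.599, Epyc from -1.85 to 2.38 and Dusp15 from -0.084 to 0.16, each highest without the 8-week pool. None of the main fold changes here was past the threshold, and the cause was not tested. The log2 ratio of Epyc between Aire-KO and WT mTEChi turned to -0.73 without cluster 16, and to -0.62 when the cell with most reads in each genotype was left out as well. In the fit over plates of mTEChi no fold change of the 7 genes turned direction in 9 alternatives, which describes the contrast that chose them and is no test. Neurod4 had 3 reads in Aire-KO mTEClo, and depth limits what its fold change there can show. No paired analysis was possible because the groups tested shared no plate, the cell numbers in the labels only name cells and the mice are not numbered. Newborn mTEChi and mTEClo, which did share plates, were set side by side by plate with no test.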
